A study of Mus musculus with 120 samples.

Results

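The S100 proteins and galectins described here are 8 genes, S100a1, S100a4, S100a6, S100a10, S100a11, S100a13, Lgals1 and Lgals3, of 22417 genes in the deposited tables. They were taken by symbol from a table of ribosome footprints and a table of mRNA. The 8 genes were put together with results from these data in view, among them a fall of S100a4 footprints in wild-type cells after 4 h of thapsigargin. Values for 4 h against 0 h in wild-type cells are therefore given as a description, with no test. Footprint tests at other times in these cells, or of other cells against them, use the same untreated wild-type libraries. Their p-values are therefore not independent of that choice of genes.

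S100 proteins are small cytosolic proteins that bind calcium through paired EF-hand motifs, form dimers and then dock onto target proteins, of which the annexins are the best known. Galectins are lectins that bind β-galactosides on glycoproteins. Both families are made on free ribosomes without a signal peptide, yet several members leave the cell by routes that do not pass through the endoplasmic reticulum (ER) and Golgi. Thapsigargin blocks the pump that fills the ER with calcium, which raises cytosolic calcium, the ligand of most S100 proteins, and brings on the unfolded protein response.

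The samples were mouse embryonic fibroblasts of 3 genotypes, each left untreated or kept in 1 µM thapsigargin for 0.5, 1, 2 or 4 h and split into a cytosol and an ER fraction. Ribosome-protected fragments (footprints, which count ribosomes on an mRNA) and mRNA were sequenced from each fraction, in 120 samples that make 60 groups of 2. The wild-type (WT) cells are labelled C57BL/6, the S51A cells carry an eIF2α that cannot be phosphorylated at serine 51, and the third line is labelled ATF4-/-, lacking a transcription factor of the integrated stress response. The mutant cells are lines described elsewhere and no strain is given for them, so genotype and line cannot be told apart. The labels of both mutants name 1 source of the cells for all footprint samples and another for all mRNA samples, so they conflict on where each line came from, and the genotypes used here are those of the sample titles. Separate cultures are not stated for the 2 libraries of a group, and p-values here reflect no more than the spread between such libraries, which may be technical.

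All 6 S100 genes lie on mouse chromosome 3, within 3.05 Mb (GRCm38 coordinates, GENCODE M21 annotation). S100a4 (plus strand, 90603771 to 90606045) and S100a6 (plus strand, 90612882 to 90614414) are neighbours 6836 bp apart. S100a1 (minus strand, 90511034 to 90514392) and S100a13 (plus strand, 90514435 to 90524581) start head to head with 42 bp between them. S100a11 (93520488 to 93526287) and S100a10 (93555080 to 93564643), both on the plus strand, form a second cluster. Lgals1 lies on chromosome 15 (plus strand, 78926725 to 78930465) and Lgals3 on chromosome 14 (plus strand, 47373813 to 47386160). Coding lengths run from 270 nucleotides in S100a6 to 795 in Lgals3, and the start codon lies in exon 2 of every gene but Lgals1, where it is in exon 1. These starts are annotated, and where ribosomes began was not measured. The S100a13 transcript used here codes for 160 residues, against 89 to 101 for the other S100 genes. The context of each annotated start is shown, with 12 bases before it, the ATG in capitals, and 6 bases after it (5′ to 3′, GENCODE M21 transcripts).
S100a1: tgtgctgctgaaATGggctct
S100a4: tcaacggttaccATGgcaaga
S100a6: cagtgatcagtcATGgcatgc
S100a10: agactcttcaaaATGccatcc
S100a11: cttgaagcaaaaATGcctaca
S100a13: cgctgtgttgggATGgctagt
Lgals1: tcagcttcaatcATGgcctgt
Lgals3: ctaatcaggaaaATGgcagac
All 8 have a purine 3 bases before the ATG, and 6 have a G directly after it. S100a10 and S100a11, whose start codons are followed by C, are the exceptions. S100a11 has an annotated pseudogene, S100a11-ps, and Lgals1 has 2, Lgals1-ps1 and Lgals1-ps2. The treatment of reads that match several places is not described, so the levels of S100a11 and Lgals1 carry that uncertainty. Only pseudogenes that carry a member's name were sought, so the other members are not shown to be free of it.

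The deposited tables give 1 total per gene, genotype and time in RPKM, reads scaled by gene length and library size, and the share of it on the ER. The values of single libraries were recovered from them as whole reads. All 8 genes were solved in all 30 footprint groups and passed the filter on low values. Depth of the footprint libraries ranged from 298952 to 11094756 reads for WT, from 6229076 to 15167088 for S51A, and from 2023221 to 8708142 for the ATF4-/- labelled cells. The mRNA libraries were much shallower, with 56945 to 118509 reads in WT. Of 12 fibroblast markers, 11 had at least 1 RPKM of footprints in untreated WT cells, 10 in S51A and 8 in the ATF4-/- labelled cells, with sums of 4095, 6731 and 3164 RPKM, of which Vim made up 2384, 3403 and 2488. Of the 11 that could be tested untreated, 5 were lower than in WT and none higher in the ATF4-/- labelled cells. They were led by Dcn (log2 difference −3.17), Postn (−2.81) and Lum (−2.59). Of all genes 31.3% were lower and 10.6% higher there. With the libraries scaled by their median ratio Fn1 lost its call, which left 4 lower. In S51A 4 were higher, led by Col1a2 (3.34), and 2 lower, led by Dcn (−3.27), where 16.1% of all genes were higher and 19.6% lower. No epithelial marker exceeded 1.48 RPKM, no endothelial marker 0.661 and no leukocyte marker 2.28 at 0 or 4 h. In WT cells after 4 h all 5 leukocyte markers in the table were at 0, but a WT 0 can stand for fewer than 4 reads. Of 4 neural markers, Nes and Tubb3 exceeded 1 RPKM, and their list summed to 75.4, 158 and 91.6 RPKM in the untreated lines. Footprints of Atf4 itself, the gene named by the ATF4-/- label, were at 132 RPKM in untreated WT, 44.6 in S51A and 11.5 in the ATF4-/- labelled cells, and at 1371, 65.7 and 362 RPKM after 4 h, so that line still held reads on the gene. The part that these differences between lines have in the results was not tested.

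Some of the 8 genes were among those with the highest footprint totals in these cells. By footprint total in untreated WT, S100a6 ranked 1, S100a4 5 and Lgals1 8, while S100a13 ranked 790 and S100a1 2102. Together the 8 genes took up 3.04% of all footprint RPKM in untreated WT cells, 2.63% in S51A and 2.97% in the ATF4-/- labelled cells. In WT the share went to 3.82% at 0.5 h, 2.82% at 1 h, 2.10% at 2 h and 1.66% at 4 h. In S51A it was 2.95% at 4 h, and in the ATF4-/- labelled cells it was 4.24% at 0.5 h and 2.65% at 4 h. These are shares of 1 summed table value per condition and carry no error. RPKM are relative values, so a loss of translation common to all genes would not appear in them.

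Untreated WT levels, scaled by gene length in RPKM, spanned more than 2 orders of magnitude. Whether other differences between genes affect their order was not tested. S100a6 (calcyclin, which binds the ubiquitin ligase adaptor CacyBP) had the highest total of any gene in the table, 13226 RPKM. S100a4 (metastasin, which binds non-muscle myosin) followed at 9428 RPKM and Lgals1 (galectin-1) at 6597. S100a11 stood at 1937 RPKM, S100a10 at 822, Lgals3 (galectin-3) at 334, S100a13 at 267 and S100a1 at 81.4. In the libraries, given here with the deeper of each pair first, S100a6 gave 8271 and 5741 RPKM in the cytosol, S100a4 7265 and 4286 and Lgals1 4489 and 4115. The cytosol ranges of S100a6 and S100a4 overlapped, as did those of S100a4 and Lgals1, while on the ER S100a6, at 5499 and 6941 RPKM, was above S100a4, at 2216 and 5091, which again overlapped Lgals1, at 2059.9 and 2530.2. Lgals3 and S100a13 were apart in the cytosol, at 261 and 199 against 184 and 172 RPKM, and overlapped on the ER, at 75.6 and 133 against 84.9 and 92.7. The other neighbours in the order did not overlap in either fraction.

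**Figure D1:**
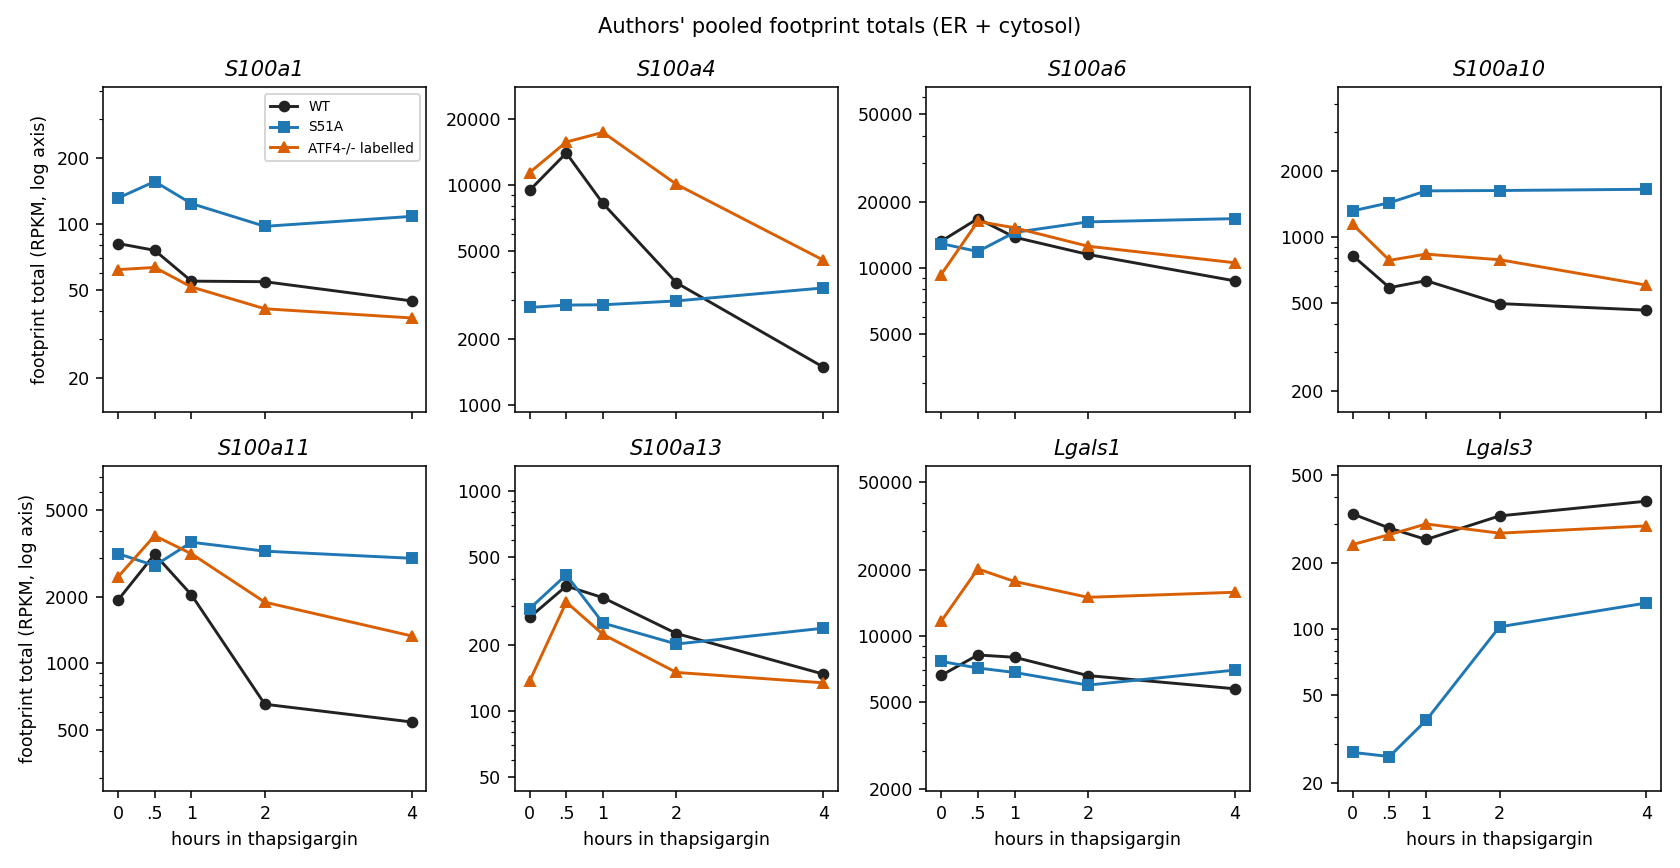
Authors' total footprint level (RPKM, log axis) of each gene at 0, 0.5, 1, 2 and 4 h of thapsigargin, with 1 line per genotype and 1 value per condition. The WT line of S100a4 goes from 9428 RPKM at 0 h to 1484 at 4 h, and the S51A line of Lgals3 from 27.5 to 132.

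The first question was when in WT cells the footprints of these genes moved. After 2 h, S100a11, S100a4 and S100a10 were lower and no member was higher. The test was limma on log2(RPKM + 1), averaged over both fractions and adjusted over all genes. By that test 8.02% of 10416 genes were lower and 15.3% higher, 23.3% in all, and the 3 of 8 members that fell are to be read against that share. The members were chosen with the 4 h fall known, and both times share the untreated libraries. The p-values and the count at 2 h are therefore not independent of that choice. Among all genes called, 65.6% were higher, or 49.4% when the libraries were scaled by their median ratio. The median change of the members was −0.34 on the log2 scale and that of all genes 0.04. In bulk samples like these, fewer cells of a kind and less RNA per cell cannot be told apart.

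S100a11 (which pairs with annexin A1 and takes part in membrane repair) gave the firmest fall, after higher levels at 0.5 h. Its cytosol libraries gave 1434 and 1193 RPKM untreated, 2379.9 and 1704 at 0.5 h, 1422 and 1169 at 1 h, 332 and 397 at 2 h and 354 and 319 at 4 h. On the ER it gave 555 and 692 RPKM untreated, 1114 and 1064 at 0.5 h, 845 and 659.8 at 1 h, 251 and 323 at 2 h and 228 and 180.4 at 4 h. Every library at 2 and 4 h lay below every untreated library of its fraction. At 2 h the level was 2.80-fold lower (log2 change −1.48 ± 0.20 (SE), adjusted p = 9.1e-07).

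S100a4 was the second. The cytosol libraries held 7265 and 4286 RPKM untreated, 14862 and 5558 at 0.5 h, 8303 and 4113 at 1 h, 2650.2 and 1902 at 2 h and 1174 and 688 at 4 h. Those on the ER held 2216 and 5091, 3356 and 4110.0, 3062 and 969, 1566 and 1055 and 437 and 668 RPKM at the same times. Of the 0.5 h cytosol pair, the lower value came from the shallowest footprint library of the study, with 298952 reads. At 2 h the groups did not overlap in either fraction and the level was 2.55-fold lower (log2 change −1.35 ± 0.45 (SE), adjusted p = 0.026). The libraries of a pair differed by up to 3.77-fold for this gene, and the call was lost (adjusted p of 0.084 to 0.14) without the deeper untreated cytosol library, the shallower untreated ER library or the shallower 2 h library of either fraction. It was also lost in the cytosol alone (adjusted p = 0.17) and when only WT libraries set the spread (adjusted p = 0.077).

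S100a10 (p11, the partner of annexin A2, an S100 protein that has lost calcium binding) fell less. It had 536 and 531 RPKM in untreated cytosol and 281 and 378 at 2 h, and on the ER 306 and 270.0 and 152 and 183. The 4 libraries at 2 h were all below the untreated libraries of their fraction, and the level was 1.67-fold lower (log2 change −0.74 ± 0.18 (SE), adjusted p = 0.0027). In the cytosol alone the adjusted p was 0.057.

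The other 5 genes did not pass at 2 h. S100a13, which takes part in the release of FGF1, had a log2 change of −0.23 ± 0.20 (SE), adjusted p = 0.45. S100a1, an S100 protein best known from muscle, had −0.45 ± 0.31 (SE), adjusted p = 0.31. S100a6 had −0.19 ± 0.21 (SE), adjusted p = 0.56, Lgals1 0.04 ± 0.21 (SE), adjusted p = 0.93 and Lgals3 0.06 ± 0.31 (SE), adjusted p = 0.92. S100a6 and S100a4 are thus neighbours on the chromosome of which 1 fell and the other did not pass the test, a difference that was not itself tested.

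No member passed at 1 h, a time at which 28.9% of 10415 genes did. The members' log2 changes at 1 h ran from −0.55 to 0.28, 1 had an unadjusted p under 0.05, and voom called 0. Without the shallower 1 h ER library, of 418179 reads, S100a1 and S100a10 were called lower. The untreated libraries are shared by the 1, 2 and 4 h comparisons.

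After 4 h in WT, 17.6% of 10417 genes passed the same threshold and 5.16% were lower, which is given only as background because the members were chosen on this contrast (70.7% of those genes were higher, 53.4% with median-ratio scaling). The log2 change was −2.63 ± 0.45 (SE) for S100a4, −1.78 ± 0.20 (SE) for S100a11, −0.81 ± 0.20 (SE) for S100a13 and −0.78 ± 0.18 (SE) for S100a10. S100a1 stood at −0.73 ± 0.31 (SE), S100a6 at −0.59 ± 0.21 (SE), Lgals1 at −0.17 ± 0.21 (SE) and Lgals3 at 0.28 ± 0.31 (SE). Of the 8 values 7 were below 0, with a median of −0.76 against 0.08 for all genes. All 6 S100 genes were below both galectins.

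**Figure D2:**
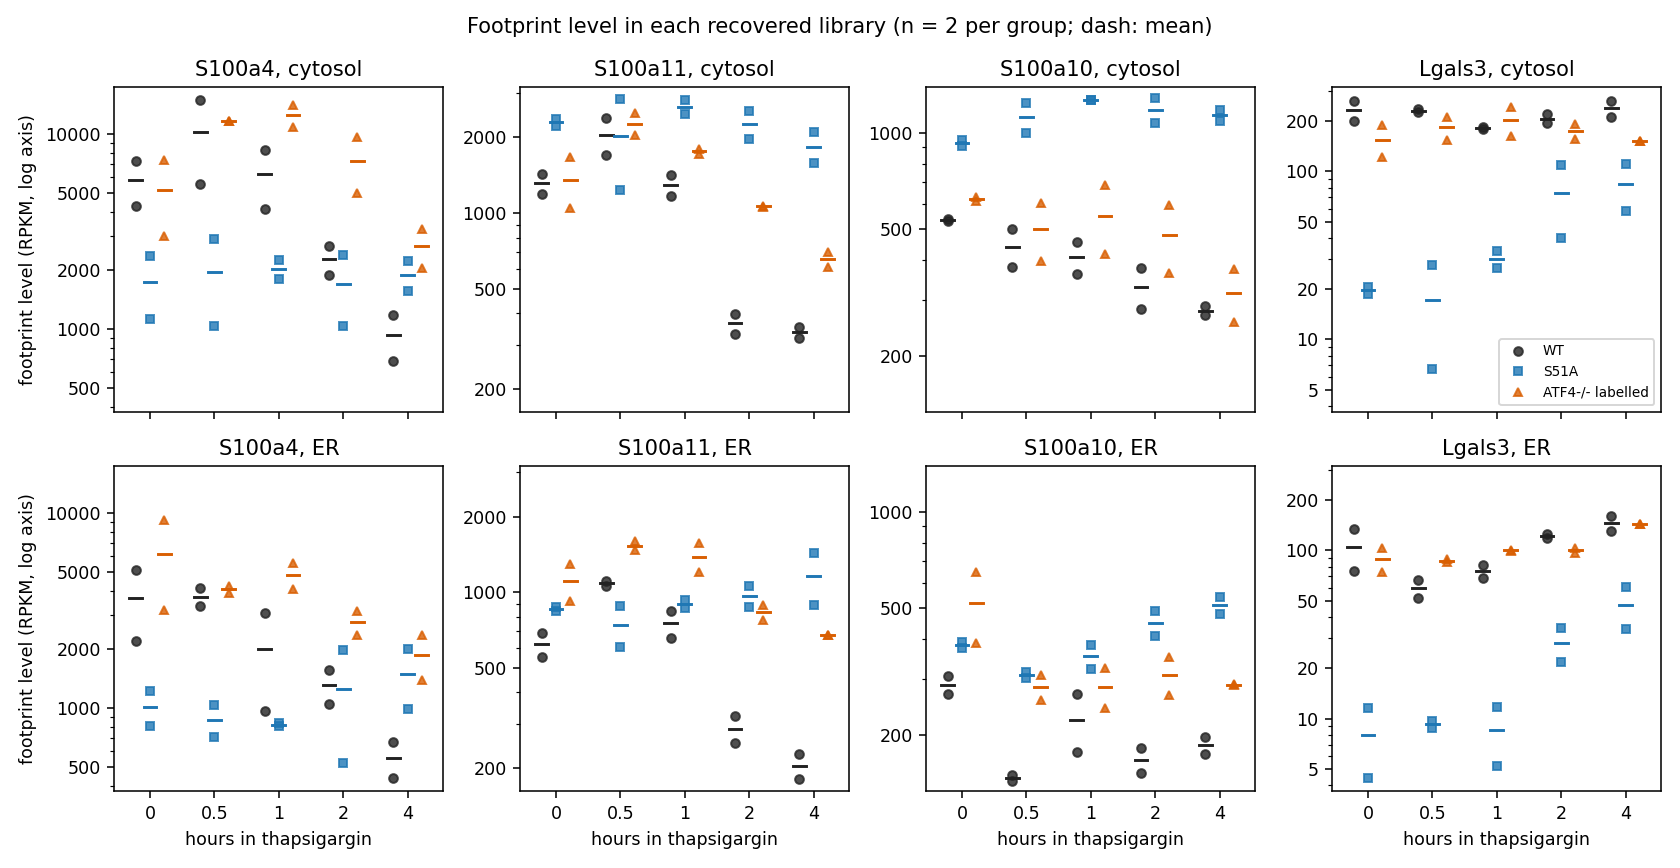
Footprint level (RPKM, log axis) of S100a4, S100a11, S100a10 and Lgals3 in each recovered library, in the cytosol (top) and on the ER (bottom), at 0, 0.5, 1, 2 and 4 h. Points are libraries and dashes the mean of 2; the WT points of S100a11 at 2 and 4 h lie below all other points of that gene, and the S51A points of Lgals3 lie below WT at every time.

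Because S100a4 and S100a11 gave the largest WT falls among the 8 genes and Lgals3, described next, the largest rise, their promoters are shown (250 bases ending just before the RefSeq transcript start, GRCm38.p6, plus strand, 5′ to 3′). Capitals mark matches to 4 motifs searched on both strands. They were the TATA box, spelled TATAAA, the box spelled CCAAT, the site of AP-1, spelled TGANTCA, and the element of C/EBP and ATF4 dimers, spelled TGATGNAAT. No matches overlapped in these promoters.
S100a4, chr3:90603520-90603769: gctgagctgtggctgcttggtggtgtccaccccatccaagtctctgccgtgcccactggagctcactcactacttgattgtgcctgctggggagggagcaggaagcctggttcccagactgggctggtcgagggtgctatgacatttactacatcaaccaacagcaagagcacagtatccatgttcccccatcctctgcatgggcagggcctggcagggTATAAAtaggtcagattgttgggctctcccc
S100a11, chr3:93520246-93520495: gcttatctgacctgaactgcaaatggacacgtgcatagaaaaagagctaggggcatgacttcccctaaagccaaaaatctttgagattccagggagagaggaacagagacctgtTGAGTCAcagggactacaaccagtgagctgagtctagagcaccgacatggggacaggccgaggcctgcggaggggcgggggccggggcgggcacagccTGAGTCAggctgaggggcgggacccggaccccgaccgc
Lgals3, chr14:47373610-47373859: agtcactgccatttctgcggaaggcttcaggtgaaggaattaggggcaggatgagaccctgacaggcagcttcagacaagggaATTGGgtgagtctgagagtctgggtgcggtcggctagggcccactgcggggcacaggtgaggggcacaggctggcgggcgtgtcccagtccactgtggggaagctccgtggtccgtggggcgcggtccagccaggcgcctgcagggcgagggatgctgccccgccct
The S100a4 promoter held TATAAA 31 bases before the start, a motif present in 12.4% of 32851 promoters. That of S100a11 held TGANTCA at 136 and 38 bases before the start, which 6.75% of promoters held at least once. Lgals3 had CCAAT on the reverse strand, 167 bases before the start, a motif in 33.8% of promoters. TGATGNAAT was in 0.816% of promoters and in none of the 6 member promoters that the RefSeq table held. A match here is a run of letters and says nothing of what binds.

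In S51A cells 1 of the 8 genes changed by 4 h, Lgals3, and it rose. Of 10409 genes 4.3% were higher and 3.93% lower, 8.23% in all. Lgals3 is the galectin with a long N-terminal tail that lets it form oligomers, and it gathers on damaged lysosomes. The cytosol libraries gave 20.5 and 18.7 RPKM untreated, 27.6 and 6.70 at 0.5 h, 33.4 and 26.6 at 1 h, 109 and 40.0 at 2 h and 110.3 and 57.9 at 4 h. ER libraries gave 4.42 and 11.5, 8.74 and 9.72, 11.8 and 5.25, 21.7 and 34.4 and 60.7 and 34.2 RPKM at these times. Every 4 h library lay above every untreated one of its fraction, 4.72-fold on average (log2 change 2.24 ± 0.31 (SE), adjusted p = 4.6e-06). The call held in all 16 other settings, with an adjusted p of at most 0.0093. The other 7 members had log2 changes of −0.26 to 0.35, and none passed. S100a4 stood at 0.35 ± 0.45 (SE), adjusted p = 0.76, S100a10 at 0.35 ± 0.18 (SE), adjusted p = 0.28 and S100a11 at 0.03 ± 0.20 (SE), adjusted p = 0.97.

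In the ATF4-/- labelled cells S100a10 and S100a11 fell by 4 h, where 6.14% of 10415 genes were lower and 9.63% higher, 15.8% in all. S100a10 had 611 and 628 RPKM in untreated cytosol and 374 and 257 at 4 h, and on the ER 389.9 and 648 and 289.6 and 286. S100a11 went from 1050.4 and 1671 to 698 and 613 RPKM in the cytosol and from 919 and 1300.5 to 676 and 675 on the ER. For both genes all 4 h libraries lay below the untreated ones of their fraction. The log2 change was −0.90 ± 0.18 (SE), adjusted p = 0.00052 for S100a10 and −0.86 ± 0.20 (SE), adjusted p = 0.0023 for S100a11, and both calls held in all 16 other settings.

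S100a4 did not pass in those cells, at −1.22 ± 0.45 (SE), adjusted p = 0.06, although its authors' total went from 11365 RPKM to 17309.6 at 1 h and 4547 at 4 h. Its untreated libraries were far apart, at 3004 and 7361 RPKM in the cytosol and 3190.1 and 9175 on the ER, against 2065 and 3266 and 1392 and 2370.2 at 4 h. It passed (adjusted p = 0.025 at the lowest) in 5 of the 16 other settings. Lgals1 did not pass either (0.48 ± 0.21 (SE), adjusted p = 0.12). The remaining 4 genes had log2 changes of −0.69 for S100a1, 0.21 for S100a6, −0.02 for S100a13 and 0.36 for Lgals3.

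**Figure D3:**
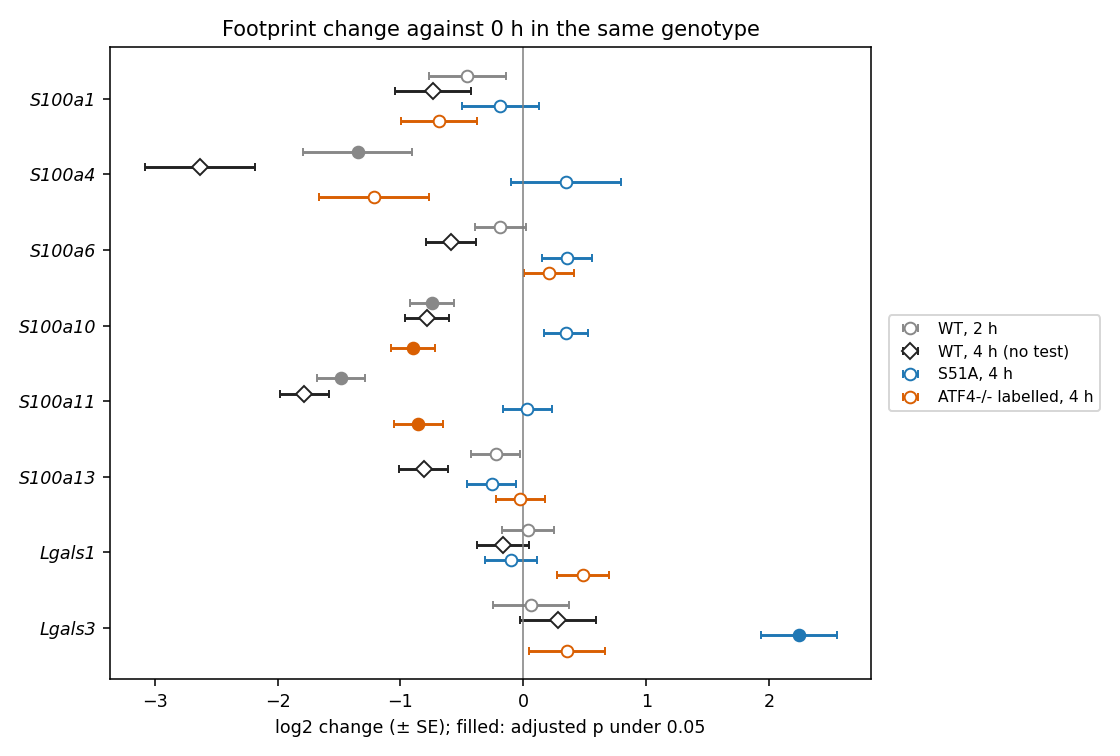
Log2 change of footprints against 0 h (with SE as bars) for each gene, in WT at 2 and 4 h and in S51A and ATF4-/- labelled cells at 4 h. Filled dots passed an adjusted p under 0.05 and open dots did not. WT at 4 h was not tested and is drawn as open diamonds. The filled dots are S100a11, S100a4 and S100a10 in WT at 2 h, Lgals3 in S51A at 2.24, and S100a10 and S100a11 in the ATF4-/- labelled cells.

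Whether the 2 h change differed between genotypes was tested as an interaction. Against WT, the change in S51A was higher for S100a11, Lgals3 and S100a10, 3 of 8, where 3.59% of 10409 genes were higher, 9.21% lower and 12.8% differed in either direction (28.1% of those called were higher, 54.2% with median-ratio scaling). The S100a11 libraries of S51A gave 2214 and 2376 RPKM in untreated cytosol and 2559.8 and 1969 at 2 h, and on the ER 842 and 872 and 875 and 1064, so the cytosol groups overlapped and the ER group at 2 h lay just above the untreated one. The difference in log2 change was 1.55 ± 0.28 (SE), adjusted p = 0.00022. For S100a10, S51A had 911 and 949 and, at 2 h, 1279.8 and 1074 RPKM in the cytosol, and 374 and 392 and 408 and 488 on the ER. Its 2 h libraries lay above the untreated ones in S51A and below them in WT, and the difference was 1.02 ± 0.26 (SE), adjusted p = 0.0062. For Lgals3 the difference was 1.68 ± 0.44 (SE), adjusted p = 0.0084. In WT Lgals3 had 261 and 199 RPKM in untreated cytosol and 217 and 194 at 2 h, groups that overlapped. In the cytosol alone S100a10 (adjusted p = 0.12) and Lgals3 (adjusted p = 0.1) did not pass, while S100a11 passed in all 24 settings. S100a4 had the difference 1.34 ± 0.63 (SE), adjusted p = 0.17, which does not show that the genotypes acted alike.

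Between the ATF4-/- labelled cells and WT, S100a11 alone of the 8 differed in its 2 h change, where 0.432% of 10413 genes were higher and 1.07% differed in either direction. It had 1073 and 1054 RPKM in the cytosol and 889 and 775 on the ER at 2 h in the ATF4-/- labelled cells, against the 332 and 397 and 251 and 323 of WT. The difference was 1.13 ± 0.28 (SE), adjusted p = 0.032. It held in 6 of 16 fits that left out 1 library, and was lost (adjusted p of 0.053 to 0.14) without any 2 h library of the ATF4-/- labelled cells, the deeper library at 0 h of either fraction in those cells, the deeper WT library at 2 h of either fraction, the deeper untreated WT cytosol library or the shallower untreated WT ER library. S100a4 had 1.13 ± 0.63 (SE), adjusted p = 0.52. Both interactions share the WT libraries, which also carry the 2 h test in WT.

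Each mutant line was also compared with WT when untreated. Against WT, S51A had less Lgals3 and S100a4 and more S100a11 and S100a10, where 19.6% of 10414 genes were lower and 16.1% higher, 35.7% in all. Of the genes called, 45.1% were higher, or 62.6% with median-ratio scaling, which moved the median of all genes from −0.01 to 0.14. Lgals3 stood apart, with 20.5 and 18.7 RPKM in the cytosol against 261 and 199 in WT and 4.42 and 11.5 on the ER against 75.6 and 133. It was 11.7-fold lower (log2 difference −3.55 ± 0.31 (SE), adjusted p = 2.9e-11). S100a4 had 2377 and 1124 RPKM against 7265 and 4286 in the cytosol and 808 and 1229 against 2216 and 5091 on the ER, 3.39-fold lower (−1.76 ± 0.45 (SE), adjusted p = 0.0021). Neither pair of groups overlapped for these genes.

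S100a11 was higher in untreated S51A (0.64 ± 0.20 (SE), adjusted p = 0.011), with 2214 and 2376 RPKM in the cytosol against 1434 and 1193. Without the deeper WT ER library its adjusted p was 0.053. S100a10 was also higher (0.61 ± 0.18 (SE), adjusted p = 0.0083), with 911 and 949 RPKM in the cytosol against 536 and 531, groups that did not overlap. S100a1 (0.73 ± 0.31 (SE), adjusted p = 0.062) missed the threshold and passed it in 5 of the 16 other settings, among them median-ratio scaling, voom and the fit without shallow libraries (adjusted p = 0.0071 at the lowest). Lgals1 (0.22 ± 0.21 (SE), adjusted p = 0.44), S100a13 (0.13 ± 0.20 (SE), adjusted p = 0.66) and S100a6 (−0.03 ± 0.21 (SE), adjusted p = 0.93) did not pass.

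In the untreated ATF4-/- labelled cells S100a13 and S100a6 were lower and Lgals1 and S100a10 higher, where 31.3% of 10416 genes were lower and 10.6% higher, 41.9% in all. The median of all genes was −0.27 in this comparison and −0.04 when the libraries were scaled by the median ratio, so values here are to be read relative to it (25.3% of the genes called were higher, 47.1% with that scaling). S100a13 had 98.0 and 83.6 RPKM in the cytosol against 184 and 172 in WT, and 44.9 and 46.7 on the ER against 84.9 and 92.7 (−0.95 ± 0.20 (SE), adjusted p = 0.0002). Lgals1, a dimeric galectin that binds glycans of the cell surface and matrix, had 6560.2 and 8115 RPKM in the cytosol against 4489 and 4115, and 4629 and 3950.3 on the ER against 2059.9 and 2530.2 (0.83 ± 0.21 (SE), adjusted p = 0.0017). All libraries of S100a13 lay below those of WT and all of Lgals1 lay above. In the cytosol alone Lgals1 had an adjusted p of 0.052.

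S100a10 (0.51 ± 0.18 (SE), adjusted p = 0.022) and S100a6 (−0.54 ± 0.21 (SE), adjusted p = 0.034) passed narrowly. S100a10 lost the call in the cytosol alone (0.22, adjusted p = 0.6) and without the shallower library of any of the 4 groups (adjusted p of 0.051 to 0.19). S100a6 lost it under median-ratio scaling (−0.21, adjusted p = 0.47), with no filter (adjusted p = 0.11), and without the deeper ATF4-/- labelled library of either fraction, the deeper WT cytosol library or the shallower WT ER library (adjusted p of 0.13 to 0.21). S100a11 (0.42 ± 0.20 (SE), adjusted p = 0.088), Lgals3 (−0.40 ± 0.31 (SE), adjusted p = 0.32), S100a1 (−0.24 ± 0.31 (SE), adjusted p = 0.58) and S100a4 (0.22 ± 0.45 (SE), adjusted p = 0.73) did not pass.

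**Figure D4:**
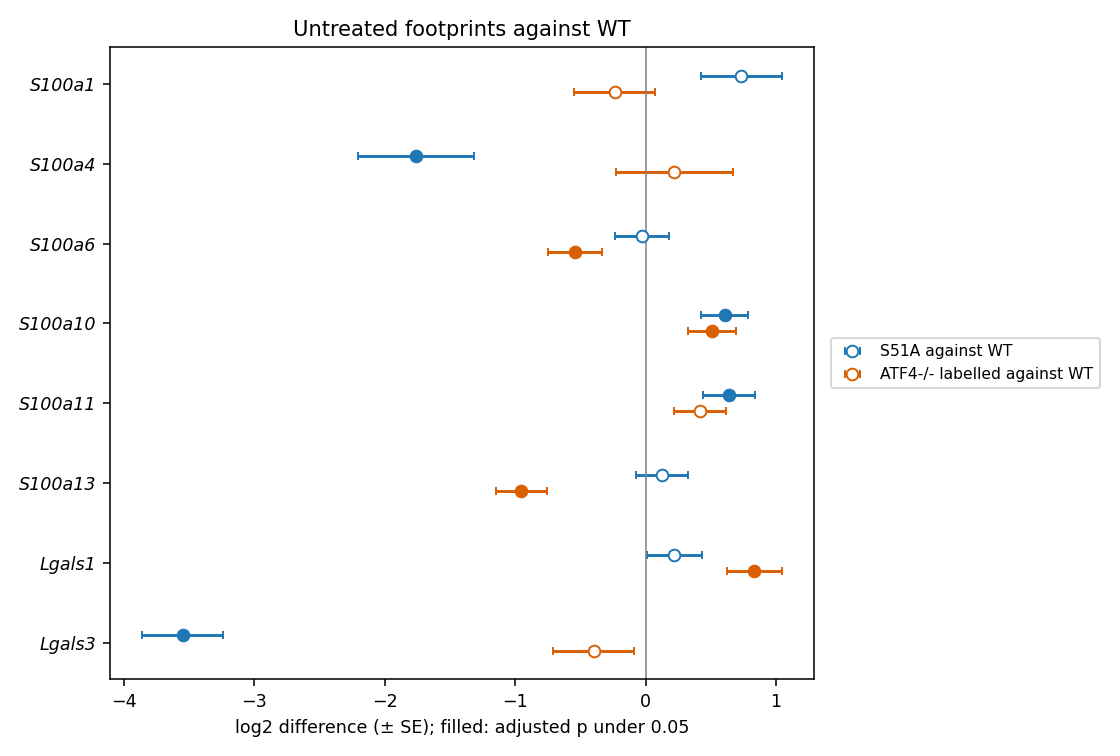
Log2 difference in untreated footprints from WT (dots, with SE as bars) for each gene in S51A and in the ATF4-/- labelled cells; filled dots passed an adjusted p under 0.05. Lgals3 in S51A lies at −3.55, and S100a10 is the 1 gene with filled dots above 0 in both lines.

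Neither family carries a signal peptide, and the ER share of their footprints lay nearer that of genes not marked as ER-targeted than that of marked ones. The share on the ER was between 14.5% and 59.5% for all members and conditions. The members' median per condition, 26.3% to 48.1%, was above that of genes not marked as ER-targeted in the footprint table (28.3% to 46.4%) in 2 of 15 conditions. In all 15 conditions every member lay below the median of the ER-marked genes, which was 47.5% to 93.7%. S100a10 is the only member that the table marks as ER-targeted, and its share was 35.1% in untreated WT, 29.2% in S51A and 45.6% in the ATF4-/- labelled cells. S100a6 had 47.0% in untreated WT and 54.6% at 4 h, and S100a11 32.2% and 37.7%. These shares are single values of the authors.

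No member's ER level shifted against its cytosol level by 4 h in WT (0.173% of all genes did, 0.0384% upward and 0.134% downward), S51A (0% of all genes) or the ATF4-/- labelled cells (0.0768%). The numbers of members with an unadjusted p under 0.05 by limma were 0, 0 and 1, and voom called 0 in each. In WT, S100a4 had an interaction of −0.0015 ± 0.89 (SE), adjusted p = 1 and S100a11 of 0.35 ± 0.40 (SE), adjusted p = 0.91 on the log2 scale. The fall of these genes was thus measured in both fractions, with no shift between them detectable at this spread.

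**Figure D5:**
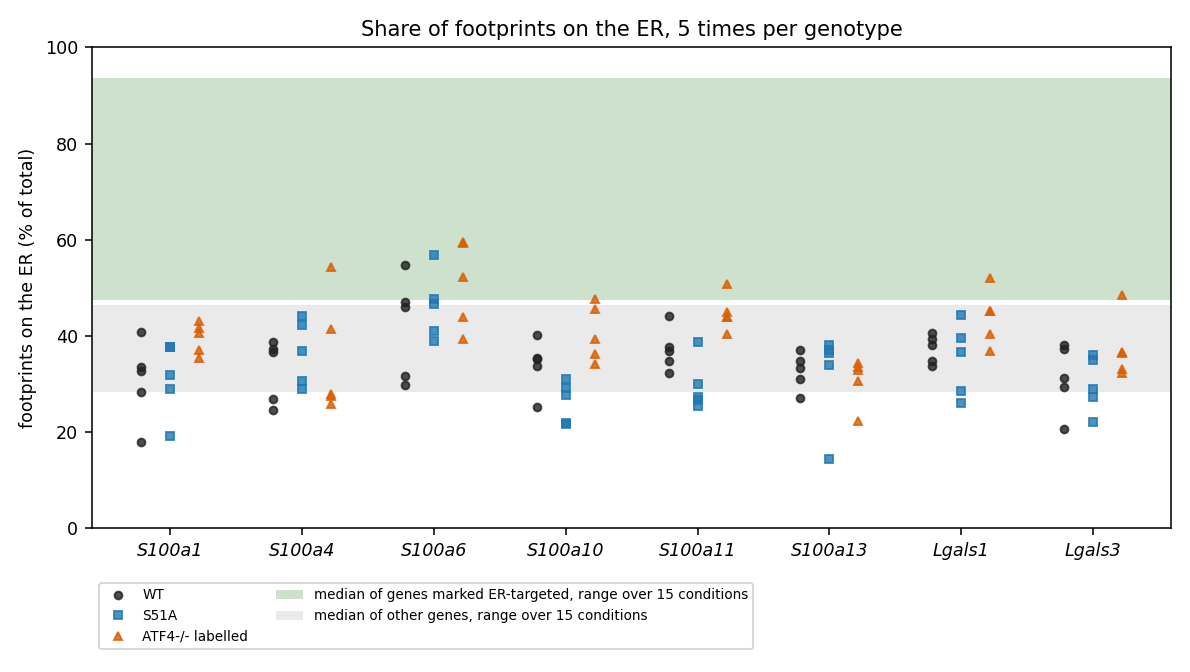
Share of footprints on the ER (percent) at 0, 0.5, 1, 2 and 4 h in the 3 genotypes, for each of the 8 genes and for the medians of genes marked and not marked as ER-targeted in the footprint table. Members run between 14.5% and 59.5%, below the ER-marked median in all 15 conditions.

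The mRNA of most members was too thinly sequenced for a test to say much. WT libraries held 0 to 22 reads of S100a4, 0 to 10 of S100a11, 0 to 5 of S100a10, 0 to 3 of S100a1 and 0 to 1 of S100a13. Lgals1, with 42 to 153, S100a6, with 7 to 46, and Lgals3, with 15 to 32, were better covered. No member's WT mRNA changed at 4 h by limma's adjusted p, where 0.0681% of 10283 genes did, although 2 had an unadjusted p under 0.05 and voom called 0. S100a4 mRNA had the authors' totals 273 RPKM untreated and 54.1 at 4 h. The limma fit to its single libraries gave a log2 change of −3.69 ± 1.21 (SE), adjusted p = 0.6. That is a larger fall than the totals show, and the shallower ER library at 4 h held 0 reads of the gene. S100a11 mRNA had −3.53 ± 1.40 (SE), adjusted p = 0.91. For the better covered genes the log2 change was −0.18 ± 0.40 (SE), adjusted p = 1 for Lgals1, −1.24 ± 1.13 (SE), adjusted p = 1 for S100a6 and 0.38 ± 0.94 (SE), adjusted p = 1 for Lgals3.

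A change of footprints beyond that of mRNA at 2 h in WT passed for 0.14% of 9277 genes, 0.097% higher and 0.0431% lower, and for none of the 8, with 0 at an unadjusted p under 0.05 by limma and 0 by voom. S100a11 had 1.22 ± 0.98 (SE), adjusted p = 0.8, S100a4 0.42 ± 0.95 (SE), adjusted p = 0.95 and S100a10 0.20 ± 1.01 (SE), adjusted p = 0.98. With so few reads, a change of translation and a change of mRNA were not distinguishable for these 3 genes. In S51A, the authors' Lgals3 mRNA total was 16.9 RPKM untreated and 51.4 at 4 h, beside 176 and 227 in WT. Its S51A mRNA libraries held 0 to 42 reads and this change was not tested. Untreated, the authors' mRNA totals in S51A and WT were 1229 and 273 RPKM for S100a4, whose footprints were lower in S51A. They were 596 and 48.7 RPKM for S100a10 and 113 and 116 for S100a11, whose footprints were higher there. S51A mRNA libraries held 0 to 299 reads of S100a4, 0 to 236 of S100a10 and 0 to 38 of S100a11. These differences were not tested.

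Relatives, partners and functional neighbours were counted by the same fits. Of 19 other S100 and galectin genes, 13 were at 0 in untreated WT cells and 6 had at least 1 RPKM, with Lgals8 the highest at 44.5 RPKM, far under the main members. A WT 0 can stand for fewer than 4 reads, and 8 of the 19 were at 0 in each untreated mutant line. Of the 7 that could be tested, S100a7a fell in WT at 2 h (−2.21), Lgals8 in WT at 1 h (−0.73), and none changed in S51A at 4 h. Of all genes 8.02% were lower in WT at 2 h and 16.5% at 1 h, and 8.23% changed in S51A at 4 h. In the ATF4-/- labelled cells at 4 h Lgals2 rose (0.69) and Lgals9 fell (−1.24), where 9.63% of all genes were higher and 6.14% lower. Untreated S51A had more S100a3 (1.54) and less S100a7a (−3.90) than WT, where 16.1% of all genes were higher and 19.6% lower. The untreated ATF4-/- labelled cells had more S100a3 and less S100a16, S100a7a and Lgals8, where 10.6% of all genes were higher and 31.3% lower. Lgals2 was also called higher in these cells, at 2.41 RPKM. It is listed at 0 in untreated WT, so no difference is drawn from it. With median-ratio scaling Lgals9 was higher as well (1.15, adjusted p = 0.018).

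Annexins and reported S100 partners, 12 genes all tested, held 3 that fell in WT at 2 h, where 8.02% of all genes were lower. Anxa5 (log2 change −0.45), Anxa1 (−0.31) and Anxa6 (−0.31) fell, none rose, and the list's median was −0.29 against 0.04 for all genes. With median-ratio scaling Sugt1 was lower too (−0.52, adjusted p = 0.026). At 1 h Cacybp, the S100a6 partner, Anxa7 (−0.53), Anxa6 and Sugt1 fell and Ahnak, the scaffold bound by S100a10, rose (0.80), where 16.5% of all genes were lower and 12.4% higher. With median-ratio scaling Anxa6 (adjusted p = 0.066) and Sugt1 (adjusted p = 0.06) lost this call. In S51A at 4 h Anxa1, the S100a11 partner, rose (1.20) and no other of the 12 passed, where 4.3% of all genes were higher. In the ATF4-/- labelled cells at 4 h Ahnak rose (1.52) and Cacybp, Anxa4 and Anxa1 (−0.43) fell, where 9.63% of all genes were higher and 6.14% lower.

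The 2 h change of this list differed from WT in S51A for Anxa1 (1.18) and Anxa5 (0.69), and in the ATF4-/- labelled cells for Ahnak (1.79) and Anxa5 (0.72), all higher. Of all genes 3.59% were higher by that test in S51A and 0.432% in the ATF4-/- labelled cells. With median-ratio scaling Anxa6 was higher in S51A as well (0.59, adjusted p = 0.01). Untreated S51A had more Anxa6, Myh9 (1.07), the myosin heavy chain bound by S100a4, and Anxa5, and less of 5, led by Anxa3 (−1.45), where 16.1% of all genes were higher and 19.6% lower. With median-ratio scaling 4 were higher, with Anxa4 added, and 2 lower, as Cacybp, Anxa1 and Sugt1 lost the call. In untreated ATF4-/- labelled cells 7 of the 12 were lower, led by Anxa3 (−1.08), and none higher, with a median of −0.49 against −0.27 for all genes, of which 31.3% were lower. With median-ratio scaling 2 of them, Anxa3 and Anxa7, were still called lower and Myh9 was higher. Anxa2, the S100a10 partner, passed in none of these comparisons.

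Among 11 reported galectin ligands and partners, Cd44 rose in WT at 1 h (1.87) and in S51A at 4 h (1.42). Of all genes 12.4% were higher in WT at 1 h and 4.3% in S51A at 4 h. None of the 11 passed in WT at 2 h or in the ATF4-/- labelled cells at 4 h. The 2 h change of Itga5, an integrin chain, was higher in S51A than in WT (2.14), where 3.59% of all genes were higher. None of the list differed in that change between the ATF4-/- labelled cells and WT. Untreated S51A had more Mcam (2.67) and less Pdcd6ip (−0.87), where 16.1% of all genes were higher and 19.6% lower. In the untreated ATF4-/- labelled cells 4 were lower, led by Lgals3bp (−2.22), a secreted galectin-binding glycoprotein, where 31.3% of all genes were lower. Fn1 lost its call with median-ratio scaling (−1.06, adjusted p = 0.072), which left 3.

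Other cytosolic EF-hand proteins, 13 genes, share the calcium-binding motif of the S100 proteins. In WT at 2 h the calpain subunits Capn1 (−0.92) and Capn2 (−0.54), Sri (−0.70) and Cib1 fell, where 8.02% of all genes were lower. The list's median was −0.28 against 0.04 for all genes. With median-ratio scaling Capns1 was lower too (−0.41, adjusted p = 0.037). At 1 h Capn1 (−0.94) and Capn2 fell, where 16.5% of all genes were lower. In S51A at 4 h Efhd2 (0.87) and Capn2 (0.56) rose, and in the ATF4-/- labelled cells Calm3, Capn1 and Capn2 fell. Of all genes 4.3% were higher in S51A and 6.14% lower in the ATF4-/- labelled cells. The 2 h change of Capn2 was higher in S51A than in WT (0.85), where 3.59% of all genes were higher. With median-ratio scaling those of Efhd2 and Capn1 were higher too, while none differed for the ATF4-/- labelled cells. In each mutant line 6 of the 13 were lower than in WT when untreated, Capns1 and Cetn3 among them in both, and none was higher, where 19.6% of all genes were lower in S51A and 31.3% in the ATF4-/- labelled cells. With median-ratio scaling 4 were lower in the ATF4-/- labelled cells, where Capns1 lost its call, and Capn1 was higher in S51A.

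EF-hand proteins of the secretory pathway, of which 7 of 8 could be tested, differed most in untreated S51A cells, where 5 were higher than in WT and none lower, against 16.1% of all genes higher. Nucb1 was a further one with median-ratio scaling (1.02, adjusted p = 0.04). The 5 were led by Sparc (2.90), a matrix protein, and the reticulocalbins Rcn3 (2.11) and Rcn1 (2.08). In WT Rcn3 (1.44), Sparc and Calu rose at 1 h, where 12.4% of all genes were higher, and none passed at 2 h. None changed in S51A at 4 h, and none differed in its 2 h change. Nucb2 rose in the ATF4-/- labelled cells at 4 h (0.87), where 9.63% of all genes were higher. Nucb2 and Rcn3 were lower in the untreated ATF4-/- labelled cells, where 31.3% of all genes were lower. With median-ratio scaling Rcn3 lost its call (−0.76, adjusted p = 0.12) and Rcn1 was higher (0.98, adjusted p = 0.024).

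Of 6 other proteins exported without a signal peptide, 5 could be tested. In WT at 2 h Fgf2 (−1.19), the cytokine Mif (−1.01) and thioredoxin, Txn1 (−0.60), fell and Hmgb1 rose (0.71), with none passing at 1 h or in S51A at 4 h. Of all genes 8.02% were lower and 15.3% higher in WT at 2 h. Hmgb1 and Txn1 fell in the ATF4-/- labelled cells at 4 h, where 6.14% of all genes were lower. The 2 h change of Fgf2 was higher in S51A than in WT (2.59), where 3.59% of all genes were higher. With median-ratio scaling Txn1 (0.89, adjusted p = 0.033) and, at the edge of the threshold, Mif (0.98) were higher there as well. The 2 h change of Hmgb1 was lower in the ATF4-/- labelled cells than in WT (−1.21), where 0.634% of all genes were lower. Untreated S51A had more Tgm2 and less Mif, where 16.1% of all genes were higher and 19.6% lower. The untreated ATF4-/- labelled cells, where 10.6% were higher and 31.3% lower, had more Mif and Txn1 and less Tgm2 and Hmgb1. Of these calls, those of Hmgb1 in WT at 2 h, in the untreated ATF4-/- labelled cells and in the change at 2 h, of Txn1 in the ATF4-/- labelled cells at 4 h and of Mif in untreated S51A were lost with median-ratio scaling. No gene of any of these lists passed in the ER shifts, the WT mRNA comparison or the comparison of footprints with mRNA. These lists share untreated and WT libraries across comparisons, so their counts are not independent.

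The genes whose authors' totals ran most like each member's were ranked by Pearson's r over the 15 conditions, among 10415 genes past the filter, as a description with no test. For S100a4 they were Rpl24 (r = 0.92) and Akap8 (r = 0.91), for S100a11 Trappc1 (r = 0.93) and Rbm3 (r = 0.92), and for S100a10 Arl2bp (r = 0.98) and Tubb2b (r = 0.98). The closest to S100a6 were Flnc (r = 0.86) and Metrn (r = 0.80), to S100a1 Slc9a3r2 (r = 0.97) and Ctdsp2 (r = 0.97), and to S100a13 Ccdc167 (r = 0.90) and Rnf167 (r = 0.90). Lgals1 was closest to Timm17a (r = 0.98) and Trp53 (r = 0.98), and Lgals3 to Cobll1 (r = 0.97) and Ddx21 (r = 0.97). No member was among the 2 nearest of another, and the 15 values share libraries and line differences, which these correlations include.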

How the data were processed

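Ribosome footprints (made with micrococcal nuclease, per the labels' protocols) and mRNA were sequenced in 120 samples, 2 per group. Per the submitters' processing notes, cutadapt 1.6 and Bowtie 1.1.1 were used; no genome build is given in the sources used here. The authors deposited 1 total per gene, genotype and time on an RPKM scale, a unit read from the values, and the ratio of it on the ER, from 0 to 1.

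Single libraries were recovered from these as whole reads with coding lengths from GENCODE M21, within a relative tolerance of 7e-12. Of 22417 genes 20224 (90.2%) had a length, and 98.1% of footprint and 98.2% of mRNA values were solved, against 0.150% and 0.0897% when lengths were exchanged between genes. WT footprints under 4 reads are listed at 0. A library's level is its part of the deposited total, so cytosol and ER levels add up to it. The mRNA of the ATF4-/- labelled cells resolved into 1 library per group and was not tested. The 2 libraries of a group differed by 1.07 to 70.6 chi-square per degree of freedom.

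Changes were tested with limma 3.58.1 (R 4.3.3; trend, empirical Bayes) on log2(RPKM + 1), with 1 mean per group, over genes at 1 RPKM or more in at least 10 libraries, adjusted by Benjamini-Hochberg over all genes and called at 0.05. Fold changes are on that scale and understate the change of low genes. In the shallow mRNA, libraries without reads of a gene can instead enlarge it. The fractions of a culture share cells but enter as separate samples. The 13 comparisons shared untreated or WT libraries. Checked on simulated data, the fits recovered the changes put in, which were only in WT footprints at 2 h. The simulation gave every gene and library the same fixed added spread, while the real pairs differed unequally. It therefore does not show how the fits behave at the spread of these data. Members and lists were chosen with earlier results of these data known. The genes named are the 8 members, 6 fixed lists of relatives and partners, and the 2 genes most alike each member. The values of 1 gene of these lists are not reported here.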

Additional observations from a re-analysis of the deposited data

Results flagged for a closer look

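In 4 cases the 2 h change of a gene differed between genotypes by the test of that difference (limma, adjusted over all genes). Against WT, the change in S51A was higher by 1.55 ± 0.28 (SE) on the log2 scale for S100a11, adjusted p = 0.00022, by 1.68 ± 0.44 for Lgals3, adjusted p = 0.0084, and by 1.02 ± 0.26 for S100a10, adjusted p = 0.0062. In the ATF4-/- labelled cells it was higher by 1.13 ± 0.28 for S100a11, adjusted p = 0.032. S100a11 is the member in both. For S100a11 and S100a10 all WT libraries at 2 h lay below the untreated ones, while those of S51A overlapped them or lay above. For Lgals3 the S51A libraries rose from a low untreated level where the WT change did not pass. These differences share the untreated and 2 h WT libraries. The untreated ones also served the 4 h comparison that was known when the members were chosen.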

How the results depend on the processing

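The 18 calls of members gave 144 values under other settings (pseudocount, filter, scaling, voom, cytosol alone, genotypes compared alone, shallow libraries left out), of which 133 kept their direction and side of the threshold, 11 missed it and none reversed. Leaving out 1 library at a time gave 176 values, of which 153 kept it, 23 missed it and none reversed. With 1 library left in a group, it is assumed to vary like the others. In the cytosol alone the number of members called was 1 and not 3 for WT at 2 h, 2 and not 4 for the untreated ATF4-/- labelled cells, 1 and not 3 for the change in S51A against WT and 0 and not 1 for the ATF4-/- labelled cells against WT. This fit has fewer libraries. Without libraries under 500000 reads 2 members and not 0 were called in WT at 1 h, and with the spread set within the genotype 4 and not 2 in the ATF4-/- labelled cells at 4 h; the cause was not tested. Leaving out 1 library, the counts ran from 0 to 2 for WT at 1 h, from 2 to 3 for WT at 2 h and for the ATF4-/- labelled cells at 4 h, from 3 to 5 for untreated S51A, from 2 to 4 for the untreated ATF4-/- labelled cells, and from 0 to 1 for the change in the ATF4-/- labelled cells; the other counts stayed as they were. The members' median for WT at 4 h ran from −0.81 to −0.64.
No paired analysis was possible because the recovered libraries carry no replicate number. The replicate block and DESeq2 size factors were not run. Depth limits the mRNA of 5 members, with 0 to 22 reads per WT library.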
